A study of Mus musculus with 11 samples.

Results

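Expression of 36 genes of the cell division cycle was examined in bulk RNA sequencing of MC38 mouse tumour material. The genes were taken by name from a table of 55487 genes, and each of the 36 was found once. They fall into 14 genes of S phase, 19 genes of mitosis and 3 regulators of G1. The choice was made by gene name, with earlier results of these data known. Libraries came from sorted tumour-infiltrating T cells and from tumours, and the series asked how FGF21 from tumour cells affects CD8+ T cells. MC38 is a mouse colon carcinoma line, and it carried either a control hairpin (shNC, genotype labelled WT) or a hairpin against Fgf21 (shFgf21, genotype labelled as an FGF21 knockdown). There were 3 shNC and 2 shFgf21 libraries of sorted cells and 3 tumour libraries of each hairpin.

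Several features limit these groups as models. The hairpin was in the tumour cells, so the sorted groups were set by the tumour they came from, and may differ in cell makeup. The genotype label of sorted shFgf21 replicate 2 names FGF22, while its title places it with the other shFgf21 library. Each sorted title strings several numbers together without saying what was pooled. Separate animals are not stated for the libraries of a group, and p-values therefore rest on library-to-library spread that may be technical. The tumour libraries are labelled as tumour tissue and carry the label mesenchymal cell beside MC38, and no source used here says whether tumour cells were purified or cultured before extraction. No source used here gives the host strain, the age or the sorting gate.

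Library totals ran from 14944013 to 19099350 counts, and each pair within a group differed by more than sampling noise. Fgf21 itself had 0 to 2 counts in every library, so its knockdown could not be checked at this depth. The sorted libraries held all 18 T cell markers examined, with Cd3e at 32.3 to 67.7 CPM (counts scaled to library size by TMM over the 11 libraries). They also held all 12 macrophage and monocyte markers, with Lyz2, the macrophage lysozyme, at 5777 to 9443 CPM, and all 7 fibroblast markers, which summed to 3897 to 4893 CPM. The sorted libraries thus held transcripts of markers of several cell types. In the tumour libraries Cd3e had 0 counts in 6 of 6, and the leukocyte marker Ptprc reached at most 0.975 CPM against 262 to 304 CPM in the sorted libraries. With leukocyte markers at or near 0 these libraries may not be whole tumour tissue, and the word tumours stands for the libraries with that label. In bulk RNA, fewer cells of a type and less RNA per cell cannot be told apart.

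As background, a dividing cell copies its DNA in S phase and separates the copies in mitosis. Before S phase, CDC6 and CDT1 load the MCM2 to MCM7 helicase onto replication origins, and cyclin E with CDK2 starts its firing. E2F transcription factors switch on these S phase genes when cyclin D kinases release them from RB. The mitotic genes peak later, and their promoters typically carry a cell cycle homology region (CHR) bound by the DREAM and MuvB complexes, together with CCAAT boxes bound by NF-Y. MKI67 and TOP2A transcripts are commonly used as marks of proliferating cells, including activated T cells and tumour cells.

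The promoters of 4 members are shown as examples, the 2 of each class with the highest mean CPM among those holding such elements. They are RefSeq windows of the GRCm38.p6 build, 300 bases long, running from 250 bases before to 50 bases after the annotated start and written on the strand of the gene. Capitals mark CCAAT (or ATTGG, its reverse complement) and the CHR letters TTTGAA or TTCGAA on either strand in the 2 mitotic genes. Top2a lies at chr11:99024140-99024439, minus strand, and Mki67 at chr7:135716330-135716629, minus strand.
Top2a: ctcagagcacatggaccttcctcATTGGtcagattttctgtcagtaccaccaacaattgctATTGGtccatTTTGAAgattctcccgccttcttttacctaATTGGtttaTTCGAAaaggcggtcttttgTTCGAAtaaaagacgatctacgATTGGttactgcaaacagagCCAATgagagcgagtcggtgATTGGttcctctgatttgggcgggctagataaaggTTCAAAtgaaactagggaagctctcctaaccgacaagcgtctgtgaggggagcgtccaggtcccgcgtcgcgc
Mki67: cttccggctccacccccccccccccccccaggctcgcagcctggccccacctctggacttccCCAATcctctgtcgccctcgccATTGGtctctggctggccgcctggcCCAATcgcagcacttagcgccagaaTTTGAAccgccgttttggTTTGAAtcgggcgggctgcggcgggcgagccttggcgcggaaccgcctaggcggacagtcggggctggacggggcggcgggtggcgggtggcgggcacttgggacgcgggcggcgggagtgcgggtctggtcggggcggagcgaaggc
In the 2 S phase genes capitals mark the E2F letters TTTCCCGC, TTTGGCGC, TTTCGCGC or TTTGCCGC on either strand, and a longer run of capitals is an overlap of matches on both strands. CCAAT letters, with 2 matches in Mcm6 and 3 in Mcm5, are not marked there. Mcm6 lies at chr1:128359656-128359955, minus strand, and Mcm5 at chr8:75109259-75109558, plus strand.
Mcm6: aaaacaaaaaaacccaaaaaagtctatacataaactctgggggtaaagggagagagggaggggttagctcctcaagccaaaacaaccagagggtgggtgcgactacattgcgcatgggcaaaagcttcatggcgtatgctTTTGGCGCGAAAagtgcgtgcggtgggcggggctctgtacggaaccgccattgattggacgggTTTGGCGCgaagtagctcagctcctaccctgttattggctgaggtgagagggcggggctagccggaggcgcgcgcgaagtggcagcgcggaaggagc
Mcm5: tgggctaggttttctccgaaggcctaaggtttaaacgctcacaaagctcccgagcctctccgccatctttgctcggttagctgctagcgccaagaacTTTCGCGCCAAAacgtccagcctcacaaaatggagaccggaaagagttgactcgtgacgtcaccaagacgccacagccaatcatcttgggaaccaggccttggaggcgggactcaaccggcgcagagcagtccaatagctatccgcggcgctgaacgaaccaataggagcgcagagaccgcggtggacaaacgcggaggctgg

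A promoter was listed for 29 of the 36 genes, in 31 windows. CHR and CCAAT letters occurred together in 12 of 15 mitotic windows (80.0%), against 7.52% of the 32851 windows of all genes. The 12 were those of Aurka, Bub1, Bub1b, Ccnb2, Cdc20, Cdk1, Cenpf, Kif11, Mki67, Plk1, Top2a and Ube2c. The Top2a window held 6 CCAAT and 4 CHR matches. Of 13 S phase windows, 2 held both kinds of letters (15.4%), those of Mcm2 and Mcm7. E2F letters occurred in 6 of the 13 S phase windows (46.2%), against 2.26% of all windows. They were found for Cdc6, Cdt1, Mcm3, Mcm5, Mcm6 and Mcm7. Among the mitotic windows only that of Cdk1, the kinase that drives entry into mitosis, held E2F letters (1 of 15). CCAAT alone was present in 93.3% of mitotic, 69.2% of S phase and 37.4% of all windows. Such matches describe the letters in these windows and are not evidence of binding.

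Every one of the 36 genes had counts in each of the 11 libraries, and all passed the filter on low counts in each comparison. Levels between genes were compared by the deposited FPKM, which divides by gene length. Averaged over the 11 libraries, Ccnd1 was highest at 142 FPKM. Its product, cyclin D1, couples growth signals to CDK4 and CDK6. Pcna, the sliding clamp of DNA polymerase, followed at 79.8 FPKM and Mcm6, a subunit of the replicative helicase, at 67.5 FPKM. The highest mitotic genes were Ube2c at 61.2 FPKM and Cdc20 at 56.2 FPKM, which encode an E2 enzyme and an activator of the anaphase-promoting complex. Top2a, topoisomerase II alpha, which untangles chromosomes, stood at 53.04 FPKM and cyclin B2 (Ccnb2) at 52.7 FPKM. Their order differed between groups. In sorted shNC Top2a, at 34.9 ± 2.8 FPKM (SD, n = 3), lay below Ccnb2 at 41.5 ± 3.7 and Cdc20 at 42.2 ± 0.7 FPKM. In tumour shFgf21 Top2a, at 81.3 ± 15.6 FPKM, lay above Ccnb2 at 72.1 ± 6.2 and Cdc20 at 69.0 ± 0.7 FPKM, but its libraries spanned 65.1 to 96.4 FPKM, a range that holds both of those means. The lowest were Ccne2 at 1.40, Cdc6 at 2.13, Tyms at 3.44 and Ccne1 at 4.81 FPKM, all of them S phase genes. The helicase subunits Mcm2 to Mcm7 lay between Mcm2 at 17.0 FPKM and Mcm6, so Cdc6, which loads them, stood below each of the 6 per unit length.

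**Figure D1:**
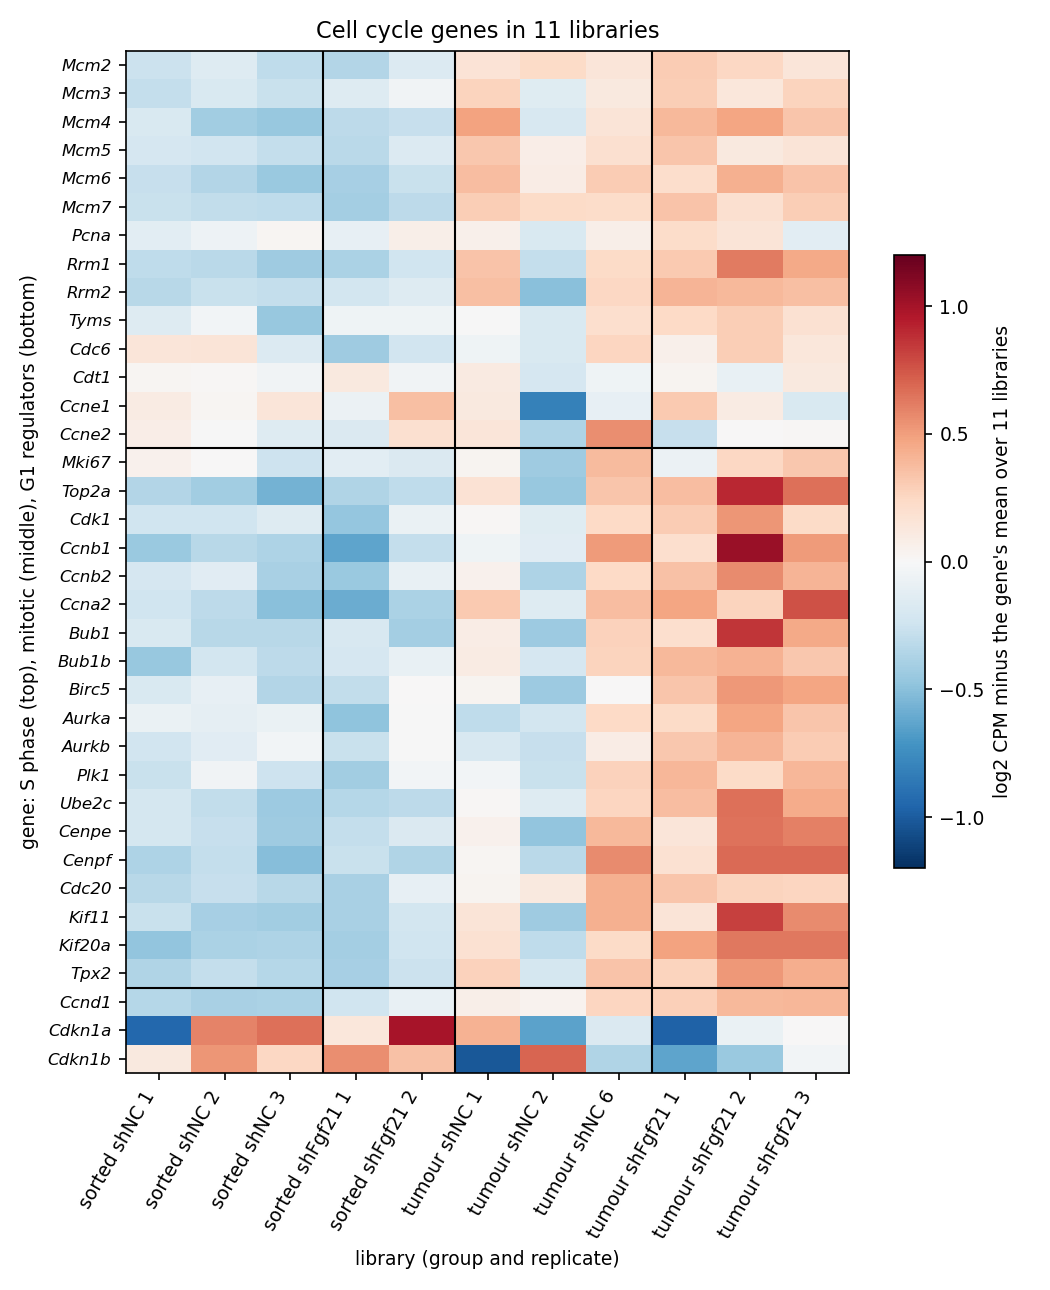
Level of the 36 genes in each library, as log2 CPM (TMM over 11 libraries) minus the mean of that gene over the 11 libraries; columns are libraries, rows are genes, and black lines separate groups and gene classes. Most S phase and mitotic rows are blue in the 5 sorted libraries and red in the tumour libraries, with tumour shNC replicate 2 paler or blue, and Cdkn1a and Cdkn1b do not share that pattern.

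Between sorted cells from shFgf21 and from shNC tumours, none of the 36 genes differed past the threshold, an adjusted p of 0.05 over all genes tested (edgeR quasi-likelihood F-test with Benjamini-Hochberg adjustment). Of 16454 genes, 13 passed (0.079%). The 14 S phase genes lay on both sides of 0, with 10 higher and 4 lower in shFgf21, a median log2 fold change of 0.02 and a range of -0.39 to 0.13. The 19 mitotic genes did so too, with 8 higher and 11 lower, a median of -0.02 and a range of -0.16 to 0.16. Over all genes tested the median was -0.01, and 48.2% were above 0. At an unadjusted p under 0.05 there was 1 member, Cdc6, where 11.2% of all genes were. DESeq2 and limma voom also called no member in sorted cells.

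Cdc6, which loads the helicase with CDT1, was measured at 21.0, 21.3 and 17.0 CPM in the 3 shNC libraries and at 14.1 and 16.0 CPM in the 2 shFgf21 libraries (CPM scaled within the sorted libraries). Both shFgf21 values lay below the 3 shNC values. The log2 fold change was -0.39 ± 0.16 (SE) with an adjusted p of 0.412 by edgeR, and it stayed negative without each library in turn (-0.49 to -0.30). Groups that do not overlap were seen for 4 other members as well. Mcm7, a helicase subunit, stood at 143, 141 and 140 CPM against 129 and 137 CPM. Mcm3 read 151, 163 and 153 CPM in shNC against 164 and 176 CPM in shFgf21. Rrm2, the regulated subunit of ribonucleotide reductase, read 118, 124 and 122 CPM against 126 and 132 CPM. The fifth was Ccnd1, a G1 regulator. None of these 5 passed the test, and 29.4% of all genes had groups that do not overlap.

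None of the 19 mitotic members separated the groups in sorted cells. Mki67, the Ki-67 antigen gene, was at 401, 389 and 325 CPM with shNC and at 352 and 337 CPM in shFgf21. Its log2 fold change was -0.11 ± 0.11 (SE), with an adjusted p of 0.760 by edgeR. Top2a was at 393, 377 and 339 CPM against 386 and 401 CPM, a log2 fold change of 0.09 ± 0.10 with an adjusted p of 0.769. The largest positive value among the mitotic genes was that of Bub1b, a kinase-like protein of the spindle checkpoint, at 0.16 ± 0.11 with an adjusted p of 0.612. The 95% intervals give, for each gene, the differences between libraries that its fit did not exclude, given a spread that may be technical. For Top2a the interval ran from -0.14 to 0.32 and for Mki67 from -0.37 to 0.16. Sorted shFgf21 replicate 2 held the highest value of the sorted libraries for 14 of the 19 mitotic genes, and replicate 1 of that group held the lowest for 9. The 2 shFgf21 libraries thus stood at opposite ends for many of the mitotic genes. Without replicate 1 the mitotic median was 0.11 and the S phase median 0.08. Without replicate 2, whose genotype label names FGF22, they were -0.08 and -0.05.

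Summed levels of macrophage and monocyte markers, of neutrophil markers and of epithelial markers did not overlap between the 2 sorted groups. Those of T cell and NK cell markers did overlap, and no marker passed the threshold. The 12 macrophage and monocyte markers summed to 11567 to 14061 CPM in shNC and to 17920 to 19293 CPM in shFgf21, and 11 of the 12 were higher in shFgf21. The 18 T cell markers summed to 478 to 944 CPM against 573 to 691 CPM. Of 5 tested neutrophil markers 4 were lower in shFgf21, with a median log2 fold change of -2.29, and the 6 listed summed to 76.9 to 150.3 CPM against 61.1 to 69.8 CPM. Of 6 NK cell markers 5 were lower, and they summed to 36.9 to 51.2 CPM against 32.2 to 38.2 CPM. Both of the 2 tested epithelial markers were lower, and the 7 listed summed to 30.4 to 43.9 CPM against 17.0 to 19.0 CPM. The part these cells have in the members' values was not tested.

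The wider sets of cell cycle genes gave no call in sorted cells either. Of 33 other S phase genes 11 were higher and 22 lower, and of 36 other mitotic genes 15 were higher and 21 lower, with none past the threshold. Among the mitotic genes the smallest p belonged to G2e3, a ubiquitin ligase, at -0.34 ± 0.11 (adjusted p 0.341, edgeR), which did not pass. Of 24 further regulators of G1 and quiescence 15 were higher and 9 lower, led by Cdkn1c, the inhibitor p57, at -1.10 ± 0.32 (adjusted p 0.298). Cdkn1c was scarce, with 33 to 54 counts in shNC and 20 to 21 counts in shFgf21. Of 16 targets of p53 14 were higher and 2 lower, none past the threshold. Bbc3, which encodes the cell death protein PUMA, had the smallest p there, at 64.8 ± 4.9 CPM (SD, n = 3) in shNC and 99.4 ± 4.0 CPM (SD, n = 2) in shFgf21. Its log2 fold change was 0.62 ± 0.10 (SE) with an adjusted p of 0.130 by edgeR.

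**Figure D2:**
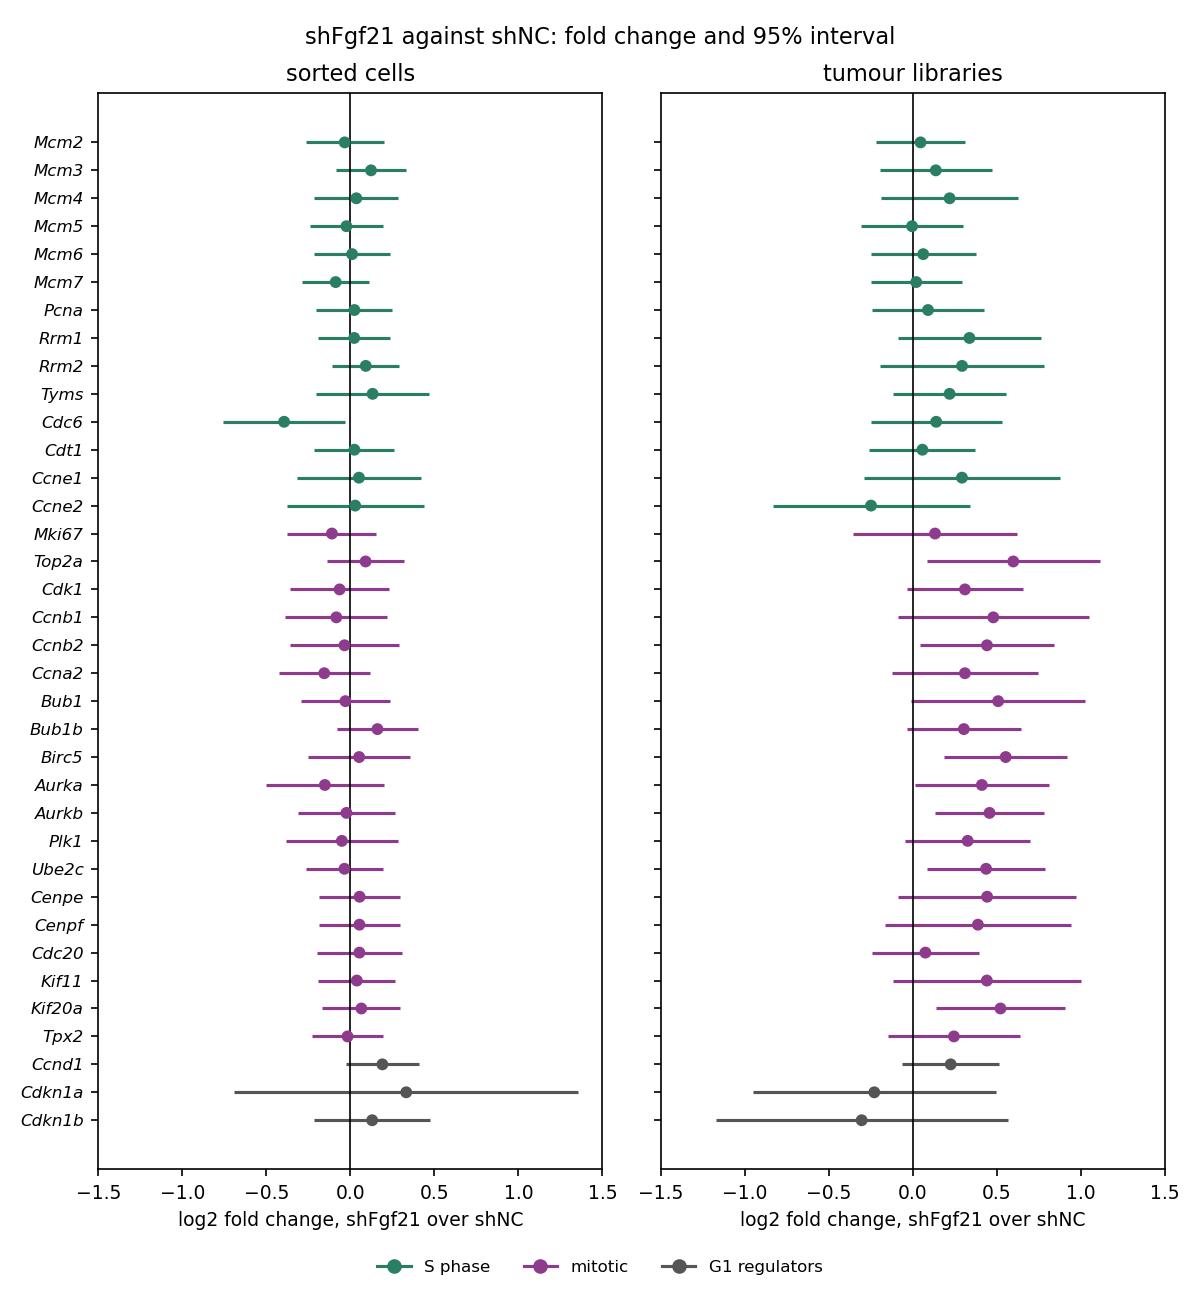
Log2 fold change of shFgf21 over shNC for each gene with its 95% interval (edgeR), in sorted cells (left, 3 shNC and 2 shFgf21 libraries) and in tumour libraries (right, 3 and 3); colours mark S phase, mitotic and G1 regulator genes. In sorted cells the points lie about 0, and in tumours the 19 mitotic points lie to the right of 0 at 0.08 to 0.60 while none of the 36 genes passed an adjusted p of 0.05 in either kind of sample.

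In the tumour libraries, whose cells carried the hairpin, each of the 19 mitotic genes had a higher fitted mean in shFgf21 than in shNC, and none passed the test. Their log2 fold changes had a median of 0.44 and a range of 0.08 to 0.60. The 14 S phase genes had a median of 0.11, with 12 above and 2 below 0. Over all 14950 genes tested the median was -0.01, and 48.8% were above 0. Genes of a list come from the same libraries, here and in the other comparisons, so their directions are not independent observations. The count of members past the threshold was 0, where 5 of all genes passed (0.0334%). At an unadjusted p under 0.05 there were 7 mitotic members, all higher in shFgf21, and no S phase or G1 member. The share of all genes at that level was 6.22%, of which the higher ones were 2.61% of the genes tested. Neither DESeq2 nor limma voom called a member here.

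The 7 mitotic genes with an unadjusted p under 0.05 act at several steps of division. Birc5 encodes survivin, a subunit of the chromosomal passenger complex. It was measured at 82.9, 58.8 and 81.0 CPM in shNC replicates 1, 2 and 6 and at 101, 114 and 112 CPM in the shFgf21 libraries (CPM scaled within the tumour libraries). Each shFgf21 value lay above every shNC value. The log2 fold change was 0.55 ± 0.16 (SE), with an adjusted p of 0.593 by edgeR.

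Aurkb, the kinase of the same complex, was at 48.5, 44.9 and 58.6 CPM with shNC and at 68.1, 72.6 and 68.1 CPM in shFgf21. The groups did not overlap, and shNC replicate 6 was the nearest to shFgf21. The log2 fold change was 0.46 ± 0.14 with an adjusted p of 0.640. Kif20a, a kinesin of the central spindle, was at 127, 89.4 and 131 CPM against 154, 172 and 173 CPM. Its log2 fold change was 0.52 ± 0.17 with an adjusted p of 0.662, and its groups did not overlap.

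Ube2c was at 175, 153 and 206 CPM with shNC and at 220, 269 and 234 CPM in shFgf21, a log2 fold change of 0.44 ± 0.15 with an adjusted p of 0.690. Top2a had the largest log2 fold change of the 36 genes, 0.60 ± 0.23, with an adjusted p of 0.741. Its values were 636, 404 and 705 CPM against 717, 1041 and 884 CPM. The lowest shFgf21 library was 717 CPM and the highest shNC library 705 CPM, so the groups were separated by a narrow gap. Ccnb2 was at 85.5, 63.1 and 97.4 CPM against 104, 121 and 109 CPM, a log2 fold change of 0.44 ± 0.17 with an adjusted p of 0.772. Aurka, the kinase of the spindle poles, was at 32.4, 33.8 and 47.0 CPM against 46.0, 54.7 and 49.9 CPM, and here shNC replicate 6 lay within the shFgf21 range. Bub1b, whose unadjusted p was 0.0734, also separated the groups, at 146, 116 and 163 CPM against 175, 180 and 170 CPM. Of all genes tested, 5.4% separated the groups with shFgf21 higher, and among the members these were 7 of 19 mitotic genes, 0 of 14 S phase genes and Ccnd1.

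A common mark of proliferation did not separate the groups. Mki67 was at 445, 316 and 563 CPM with shNC and at 405, 508 and 538 CPM in shFgf21, so that both the lowest and the highest value were shNC. Its log2 fold change was 0.13 ± 0.22 with a 95% interval of -0.36 to 0.62 and an adjusted p of 0.958 (edgeR). Cdc20 was at 136, 142 and 178 CPM against 165, 158 and 158 CPM, and its log2 fold change of 0.08 ± 0.14 was the smallest of the 19. Cdk1 stood at 0.31 ± 0.15, cyclin B1 (Ccnb1) at 0.48 ± 0.25, the checkpoint kinase Bub1 at 0.51 ± 0.23 and the polo-like kinase Plk1 at 0.33 ± 0.16. Their adjusted p-values ran from 0.802 to 0.841.

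**Figure D3:**
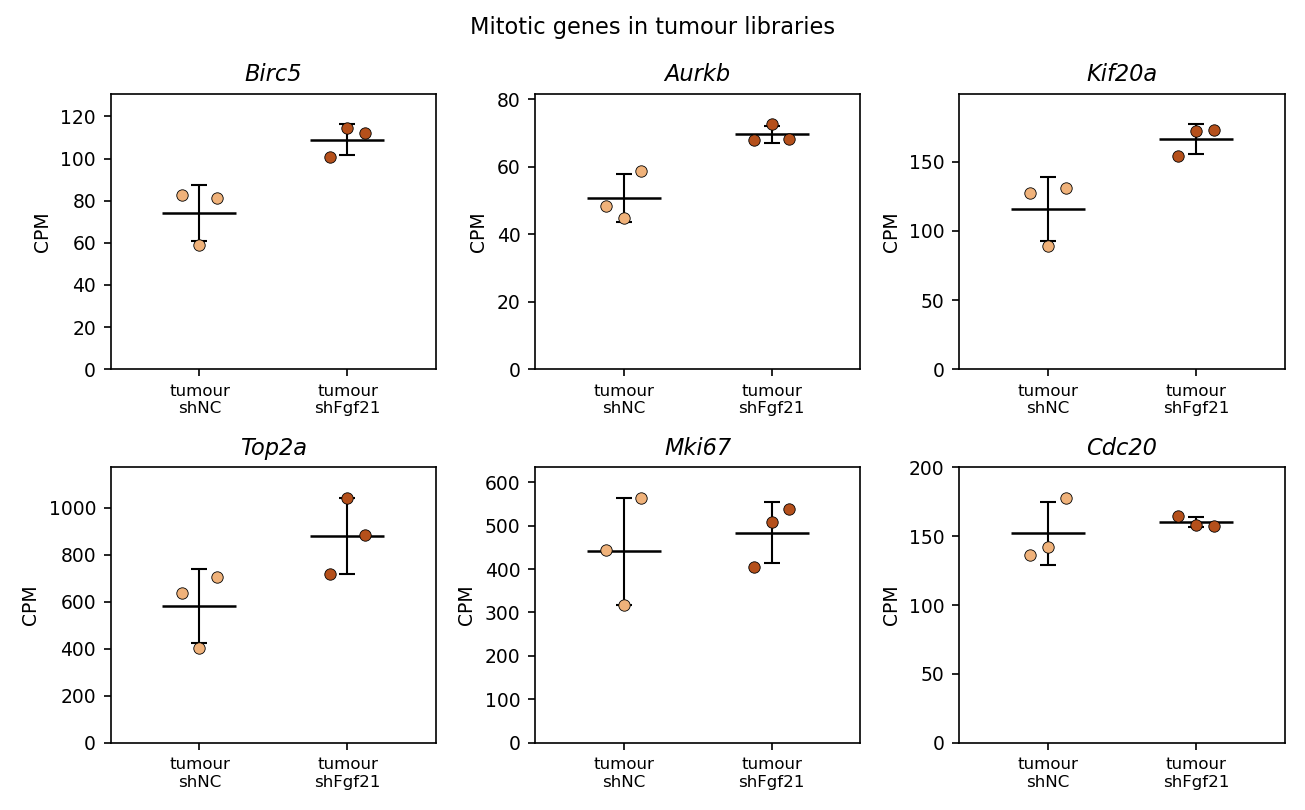
CPM of 6 mitotic genes in tumour libraries (TMM within the tumour libraries); points are libraries, the horizontal line is the group mean and the bar 1 SD, n = 3 each, with the axis starting at 0. Birc5, Aurkb, Kif20a and Top2a show shFgf21 points above every shNC point (for Birc5 101 to 114 CPM against 58.8 to 82.9 CPM), and Mki67 and Cdc20 overlap.

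The difference rested in part on 1 library. Tumour shNC replicate 2 held the lowest value of the 6 tumour libraries for 17 of the 19 mitotic and 12 of the 14 S phase genes. At the other end, shFgf21 replicate 2 held the highest value for 14 of the 19 mitotic genes. Without shNC replicate 2 the mitotic median was 0.25, with 18 of 19 above 0, and the S phase median was 0.04. With voom quality weights the mitotic median was 0.33, again with 18 of 19 above 0. Leaving out each tumour library in turn gave mitotic medians of 0.25 to 0.59. The number of members at an unadjusted p under 0.05, 7 with all libraries, was 3 without shNC replicate 2 and 3 without shFgf21 replicate 2. It was 4 without shFgf21 replicate 3, 11 without shFgf21 replicate 1 and 15 without shNC replicate 6, and 14 with all 4 groups in one fit. The spread within shNC is visible in the summed levels: the 19 mitotic genes summed to 2228 to 3483 CPM in shNC and to 3336 to 4158 CPM in shFgf21 (CPM over the 11 libraries).

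Among the S phase genes of the tumours, the subunits of ribonucleotide reductase, which makes deoxynucleotides, had the largest positive values together with cyclin E1. Rrm1 was at 318, 202 and 293 CPM with shNC and at 305, 381 and 342 CPM in shFgf21, a log2 fold change of 0.34 ± 0.19 with an adjusted p of 0.854. Rrm2 was at 213, 116 and 197 CPM against 218, 215 and 213 CPM. The 3 shFgf21 libraries were nearly equal for Rrm2, while shNC replicate 2 stood far below the other two. Its log2 fold change was 0.29 ± 0.21 without passing (adjusted p 0.908). Tyms, thymidylate synthase, was at 0.22 ± 0.15 with an adjusted p of 0.890. The helicase genes Mcm2, Mcm5 and Mcm7 were the most even of the members, with the highest tumour library 1.12, 1.19 and 1.11 times the lowest. Top2a, by the same measure, spanned 2.57 times.

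The other mitotic genes had the same direction in the tumours. Of 36, 35 were higher and 1 lower in shFgf21, with a median log2 fold change of 0.34, and none passed the threshold. They were measured in the same libraries as the members, so this is not an independent observation. The 33 other S phase genes had a median of 0.14, with 26 higher and 7 lower. Hmmr, a spindle assembly factor, had the smallest p of the mitotic set, at 0.68 ± 0.24 with an adjusted p of 0.715 (edgeR). Rfc2, a subunit of the clamp loader, had the smallest p of the S phase set, at 0.44 ± 0.13 with an adjusted p of 0.634, from 69.4 ± 6.1 to 94.3 ± 7.9 CPM (SD, n = 3 each). Of 22 tested regulators of G1 and quiescence 17 were higher, and cyclin D2 (Ccnd2) had the smallest p, at -0.41 ± 0.15 with an adjusted p of 0.690. Of 15 tested p53 targets 9 were higher, with Zmat3 at 0.38 ± 0.19 (adjusted p 0.829). Of 7 fibroblast markers 6 were lower in shFgf21, and none passed the threshold. Their sums overlapped, at 5988 to 7904 CPM in shNC and 4510 to 6269 CPM in shFgf21. Their part in the mitotic values was not tested.

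The shFgf21 effect in sorted cells was compared with that in tumours by an interaction term in a fit of all 11 libraries. No member passed, and 1 of 17327 genes did (0.00577%). All 19 mitotic genes had a negative term, which means a smaller or more negative effect in sorted cells, with a median of -0.45 on the log2 scale, and 13 of 14 S phase genes did so with a median of -0.07. Without tumour shNC replicate 2 the S phase direction was lost, with 8 of 14 above 0 and a median of 0.02, while the mitotic median was -0.30. The median of all genes was 0.02, and 52.7% were above 0. At an unadjusted p under 0.05 there were 5 members, all negative, against 4.77% of all genes and 1.88% with a negative term. They were Aurkb at -0.47 ± 0.19, Ube2c at -0.46 ± 0.19, Birc5 at -0.49 ± 0.22, Aurka at -0.55 ± 0.25 and Cdc6 at -0.52 ± 0.23, each with an adjusted p of 1.0. DESeq2 called no member in this comparison. The number of members at an unadjusted p under 0.05 depended on libraries of both kinds. It was 0 without sorted shNC replicate 2 and without tumour shNC replicate 2. It was 1 without sorted shNC replicate 1 or tumour shFgf21 replicate 2, 2 without tumour shNC replicate 1 or tumour shFgf21 replicate 3, and 3 without sorted shNC replicate 3. It was 8 without tumour shFgf21 replicate 1 and 14 without tumour shNC replicate 6. In the wider sets Rfc2 was at -0.60 ± 0.16 (adjusted p 0.794) and Psrc1, a spindle protein, at -0.92 ± 0.43 (adjusted p 1.0), neither past the threshold. Trp53inp1, a p53 target, was at 1.11 ± 0.49 with an adjusted p of 1.0. The smallest p among the regulators was that of Cdkn2b, the inhibitor p15, which had 4 to 8 counts in the shNC tumours and 0 counts in the 3 shFgf21 tumours, too few for a fold change.

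Members did pass the threshold between the kinds of sample. Between shNC sorted cells and shNC tumours, 14 of the 36 genes passed the threshold and all 14 were lower in sorted cells. They were 7 S phase genes (Mcm2 to Mcm7 and Rrm1), 6 mitotic genes (Ccna2, Cdc20, Tpx2, Kif20a, Bub1b and Ube2c) and Ccnd1. Of all 17327 genes 33.4% passed, 13.1% lower and 20.3% higher in sorted cells. The median log2 fold change was -0.35 for S phase genes and -0.36 for mitotic genes, of which 19 of 19 were negative, against -0.01 for all genes, of which 49.3% were above 0.

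All 6 subunits of the replicative helicase were called lower in sorted cells. Mcm7 was at 151, 148 and 147 CPM in sorted shNC and at 223, 213 and 212 CPM in tumour shNC (CPM over the 11 libraries). The replicates of each group lay close together, and the groups were far apart. Its log2 fold change was -0.54 ± 0.09 with an adjusted p of 0.000632 (edgeR). Mcm6 was at 312, 295 and 277 CPM against 487, 402 and 467 CPM, which is -0.62 ± 0.11 with an adjusted p of 0.00111. Mcm2 was at 124, 134 and 120 CPM against 167, 175 and 164 CPM, which is -0.42 ± 0.10 with an adjusted p of 0.00569. Mcm5 stood at -0.44 ± 0.10, Mcm4 at -0.52 ± 0.15 and Mcm3 at -0.33 ± 0.12. Mcm4 was called although its groups overlapped, since tumour shNC replicate 2 at 177 CPM lay under sorted shNC replicate 1 at 179 CPM. Rrm1 was at -0.47 ± 0.15 with an adjusted p of 0.0318.

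The other S phase genes ranged widely in this contrast. The mean of the sorted shNC libraries was 72.0% of that of the tumour shNC libraries for Rrm1, 76.8% for Rrm2, 86.2% for Tyms and 87.9% for Ccne2. Rrm2, at -0.38 ± 0.18 on the log2 scale, was further from 0 than Mcm3 but did not pass (adjusted p 0.120, edgeR). Pcna, which works at the same forks, was at 256, 267 and 283 CPM in sorted cells and at 291, 246 and 293 CPM in tumours. The groups overlapped, and the log2 fold change was -0.04 ± 0.12 with a 95% interval of -0.30 to 0.22 and an adjusted p of 0.827. The sorted mean was 102% of the tumour mean for Cdc6, 103% for Cdt1 and 123% for Ccne1, and 65.2% for Mcm6. The difference between these genes and the helicase was not tested.

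Among the mitotic genes, Cdc20 was at 99.7, 104 and 99.5 CPM in sorted cells and at 128, 136 and 168 CPM in tumours, which is -0.52 ± 0.12 with an adjusted p of 0.00605. Ccna2, cyclin A2, which acts in S phase as well as mitosis, was at -0.54 ± 0.17 with an adjusted p of 0.0246. Tpx2, the spindle activator of Aurora A, was at -0.49 ± 0.14, Kif20a at -0.46 ± 0.14, Bub1b at -0.39 ± 0.12 and Ube2c at -0.36 ± 0.13, with adjusted p-values from 0.0188 to 0.0449. Top2a was at 416, 396 and 358 CPM against 599, 388 and 667 CPM. Tumour shNC replicate 2 lay within the sorted range, and the log2 fold change of -0.50 ± 0.19 did not pass (adjusted p 0.0636). Mki67 was at 424, 409 and 343 CPM against 419, 303 and 532 CPM, with overlapping groups, a log2 fold change of -0.09 ± 0.18 and an adjusted p of 0.743. Birc5, Aurka and Aurkb were at 94.0%, 98.9% and 99.4% of the tumour mean.

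**Figure D4:**
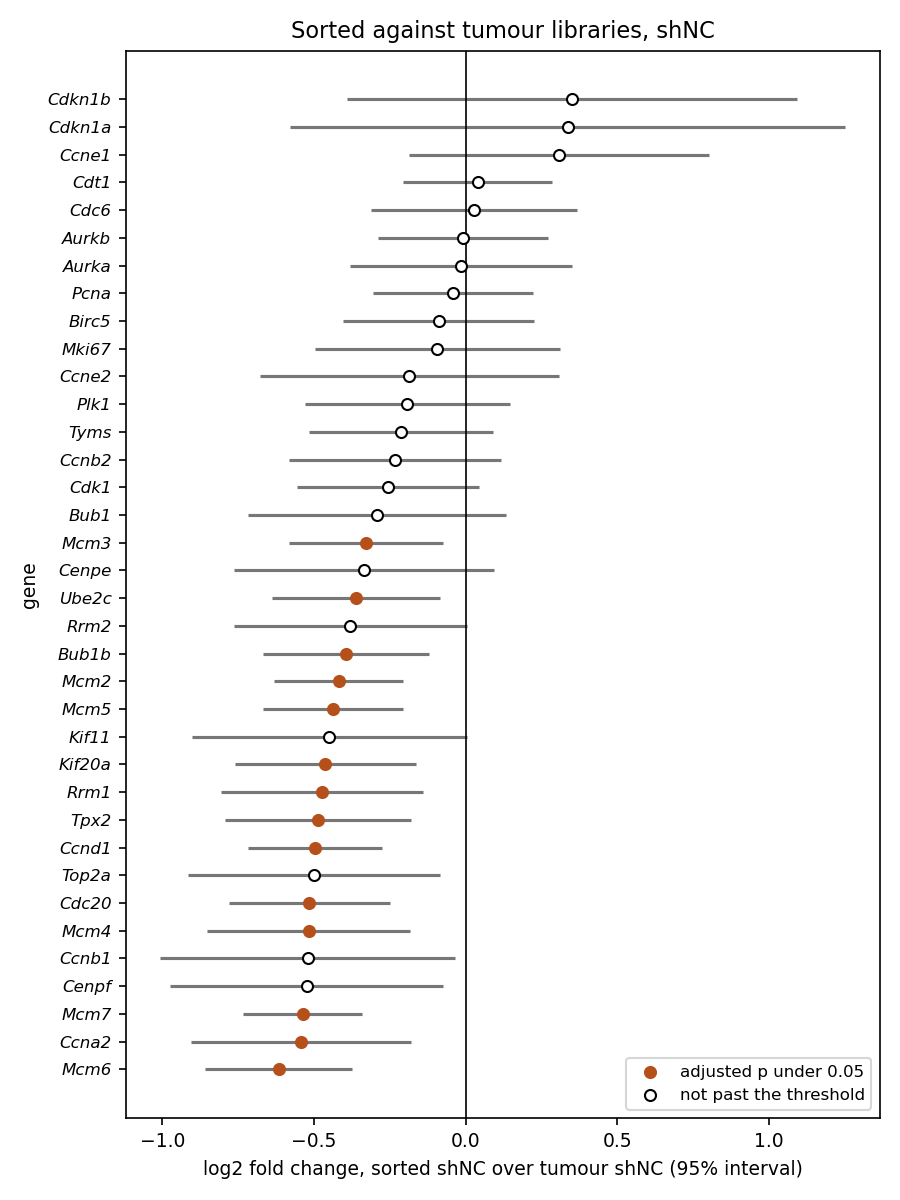
Log2 fold change of shNC sorted cells over shNC tumours for the 36 genes with 95% intervals (edgeR, fit of all 11 libraries), ordered by value; filled points passed an adjusted p of 0.05. The 14 filled points lie left of 0, from Mcm6 at -0.62 to Mcm3 at -0.33, while Pcna, Mki67, Aurka and Aurkb lie near 0.

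The calls differed in how far they rested on single libraries. Mcm2, Mcm5, Mcm6, Mcm7, Cdc20 and Ccnd1 were called without each of the 11 libraries in turn and under the 6 other settings. Mcm4 was called in 8 of the 11, Ube2c in 3 and Mcm3 in 2. The count of members called fell to 6 without sorted shNC replicate 3 and without tumour shNC replicate 1, to 7 without sorted shNC replicate 2 and without tumour shNC replicate 6, and to 8 without sorted shNC replicate 1. Without tumour shNC replicate 2 it was 20, of which 19 were lower and Cdkn1b was higher in sorted cells. These libraries differ in cell makeup: all 18 T cell and all 12 macrophage and monocyte markers were called higher in sorted cells. Of 7 fibroblast markers 4 were called lower. The fibroblast markers still summed to 3897 to 4893 CPM in sorted shNC, against 5988 to 7904 CPM in tumour shNC. Endothelial markers summed to 16.4 to 34.0 CPM in sorted shNC and to 1.26 to 14.6 CPM in tumour shNC. For epithelial markers the sums were 30.4 to 43.9 CPM and 2.87 to 6.89 CPM. Which cells gave the fibroblast marker transcripts was not tested, nor how much tumour cell RNA the sorted libraries held. The contrast compares kinds of library, and cell makeup and level per cell cannot be told apart in it.

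In the deposited coordinates 5 members overlap a gene whose counts came to 17.2% or more of their own. The strand used in counting is not stated, so their reads cannot be fully separated. Mcm7 (chr5:138164583-138172422) overlaps Cops6 and Ap4m1, whose counts came to 42.6% and 18.8% of its own. Cdc20 (chr4:118432901-118437352) overlaps the end of Elovl1, whose counts came to 30.7% of its own. Kif20a overlaps Cdc23 at 59.1%, and Ccna2 overlaps Exosc9 at 17.2%. Ccne2 overlaps Ints8, which had 239% of its counts. The other overlaps were with genes of at most 1.32% of the member's counts, the value for Cdkn1a. Among them, Ccnd1 (chr7:144929931-144939925) overlaps LTO1 at 0.913%. No overlapping gene was found for Mcm6 (chr1:128331590-128359664), Mcm2 (chr6:88883474-88898780) and Mcm5 (chr8:75109569-75128439).

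The wider sets split in the same contrast, where 13.1% of all genes were called lower and 20.3% higher. Of 33 other S phase genes 8 were called lower and 1 higher in sorted cells. Pola1, the catalytic subunit of DNA polymerase alpha, was lower in sorted cells at -0.78 ± 0.16 with an adjusted p of 0.00240. The exception was Rfc2, higher at 0.44 ± 0.10 with an adjusted p of 0.00663. Of 36 other mitotic genes 8 were called lower and 1 higher. Cks1b, a subunit of cyclin kinases, was at -0.63 ± 0.12 and Anln, anillin of the cleavage furrow, at -0.76 ± 0.21, while Gas2l3, a cytoskeletal linker protein, was higher at 1.03 ± 0.26. Gas2l3, Rfc2, Pola1 and Cks1b kept their calls without each library in turn.

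Of the 3 G1 regulators, Ccnd1 was the most abundant member and, like the helicase genes, was lower in sorted shNC, at 609, 590 and 594 CPM, than in tumour shNC, at 811, 794 and 925 CPM. The groups did not overlap, and the log2 fold change was -0.50 ± 0.10 with an adjusted p of 0.00252. With shFgf21 it was at 614 and 680 CPM against 576, 562 and 563 CPM in sorted cells (CPM within the sorted libraries). In tumours it was at 983, 1057 and 1078 CPM against 861, 828 and 977 CPM. The shFgf21 values lay above the shNC values in both kinds of sample, with log2 fold changes of 0.19 ± 0.09 and 0.23 ± 0.13 and adjusted p-values of 0.502 and 0.857, so neither passed.

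Cdkn1a, which encodes the CDK inhibitor p21, varied most among the sorted libraries. It was at 104, 303 and 316 CPM in sorted shNC and at 219 and 396 CPM in sorted shFgf21 (CPM over the 11 libraries). The highest sorted library was 3.82 times the lowest, where the other 35 members spanned 1.10 to 1.49 times. Replicate 1 of shNC stood far below the rest. The log2 fold change with shFgf21 was 0.33 ± 0.44 with an adjusted p of 0.817, and it was -0.03 without shNC replicate 1 and -0.15 without shFgf21 replicate 2. In tumours Cdkn1a was at 267, 128 and 177 CPM against 102, 189 and 200 CPM, with overlapping groups, a log2 fold change of -0.23 ± 0.32 and an adjusted p of 0.948.

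Cdkn1b, which encodes the inhibitor p27 of resting cells, varied most among the tumours. Tumour shNC replicate 2 had 65.8 CPM, and the 5 other tumour libraries had 19.96 to 39.6 CPM. That library was also the lowest for 17 of 19 mitotic genes. The log2 fold change with shFgf21 in tumours was -0.30 ± 0.38 with an adjusted p of 0.942, and 0.30 without that library. Sorted libraries held 43.7 to 59.4 CPM. Between the shNC groups Cdkn1a and Cdkn1b were 0.34 ± 0.42 and 0.35 ± 0.34 on the log2 scale, neither past the threshold.

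**Figure D5:**
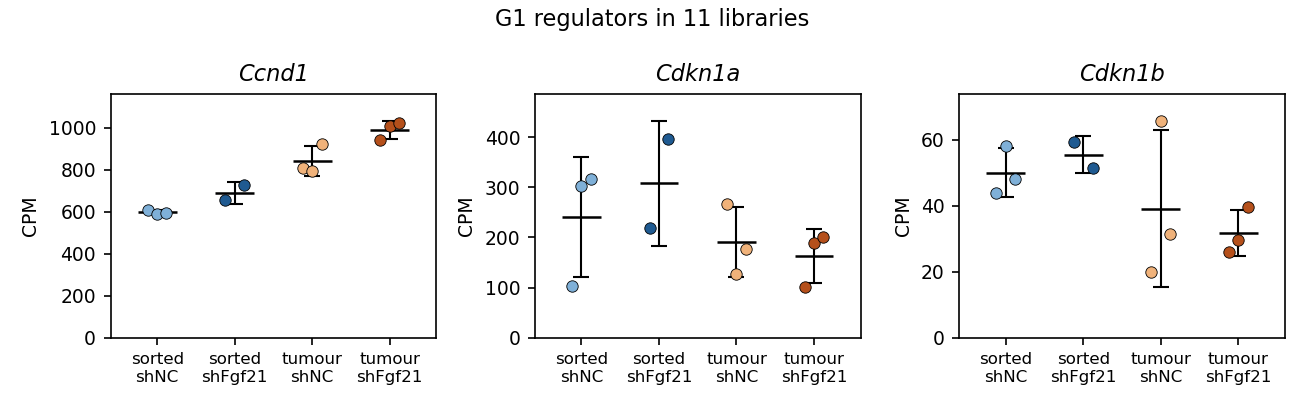
CPM of Ccnd1, Cdkn1a and Cdkn1b in the 4 groups (TMM over the 11 libraries); points are libraries, lines are means and bars 1 SD (n = 3, 2, 3 and 3), with the axis starting at 0. Ccnd1 is higher in tumours than in sorted cells, Cdkn1a spans 104 to 396 CPM in sorted cells, and 1 tumour shNC library at 65.8 CPM stands above the other tumours for Cdkn1b.

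Of the 24 further regulators, 5 were called higher and 3 lower in sorted shNC than in tumour shNC. Among all genes tested 20.3% were called higher and 13.1% lower. Cdkn2a, which encodes p16 and p19ARF, had 17 to 20 counts in each sorted shNC library and 16 to 29 counts in each sorted shFgf21 library. It had 0 counts in the 6 tumour libraries, which allows at most 0.157 to 0.200 CPM there, for counting error only. E2f2 was higher in sorted cells at 0.71 ± 0.14 with an adjusted p of 0.00192. Myc was lower at -0.62 ± 0.17 and Cdk4, the kinase partner of cyclin D, lower at -0.52 ± 0.16, with adjusted p-values of 0.0159 and 0.0246. Of 16 p53 targets 10 were called higher and 1 lower. Trp53inp1, a stress-induced autophagy factor, was at 28.6 ± 9.7 CPM in sorted cells and 4.2 ± 1.6 CPM in tumours (SD, n = 3 each), which is 2.78 ± 0.34 on the log2 scale. Plk3, a stress-response polo kinase, was higher at 1.37 ± 0.20, and Phlda3, an inhibitor of AKT, was lower at -0.67 ± 0.18 with an adjusted p of 0.0120.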

How the data were processed

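Bulk RNA sequencing gave 11 libraries. For each gene the authors deposited a raw count and an FPKM value, per the file headers, on mm10, per the submitters' processing notes. No source used here names the aligner, counting program, annotation release or strandedness. Groups were taken from the titles. Counts were tested in R 4.3.3 with edgeR 4.0.16: filterByExpr, TMM and quasi-likelihood F-tests, with Benjamini-Hochberg adjustment over all genes tested and a threshold of 0.05. The 2 hairpin groups were fitted within each kind of sample, and the interaction and the contrast of shNC groups in all 11 libraries. An SE is the log2 fold change over the square root of F. FPKM, as deposited, served only for levels between genes. The tests were first tried on simulated counts. A count of 0 allows 3 counts, for counting error only. Alternatives were median-ratio factors, no filter, a mean of at least 5 CPM, DESeq2 1.42.0, limma 3.58.1 voom with quality weights, other sets of groups, a title-number block and leaving out each library. The members, the wider gene lists and the promoter motifs were chosen with earlier results of these data known. Named are all 36 members, Fgf21, Ptprc, Cd3e and Lyz2, and from each wider list up to 2 genes per direction and comparison with the smallest p among those passing, or the 1 with the smallest p where none passed. Some genes named by this rule are not reported here. Gtse1 is on both the mitotic and the p53 list. Single fold changes are printed for the members each result turns on.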

Additional observations from a re-analysis of the deposited data

How the results depend on the processing

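No member was called in sorted cells, in tumours or for the interaction under any setting run. The counts of all genes called depended on the setting. In sorted cells (13) they were 1 with all 4 groups in one fit, 232 with DESeq2 and 1 without a filter, and 0 to 34 without each library in turn. In tumours (5) they were 26 with all 4 groups in one fit, 115 with DESeq2, 21 with voom and 1 with a minimum mean of 5 CPM, and 0 to 8 without each library. For the interaction (1) they were 32 with DESeq2, 0 with a minimum mean of 5 CPM and 4 without a filter, and 0 to 4 without each library. In the interaction fit with a minimum mean of 5 CPM, 6 members had an unadjusted p under 0.05. Tumour numbers 1 and 2 occur in both groups. Deviations of same-numbered libraries correlated at 0.17 and -0.15 over 14950 genes. With so few libraries in a group, this cannot show whether same-numbered libraries share a batch. Numbers 6 and 3 each occur in 1 group, so a block by number leaves those libraries out of the contrast. That block, resting on numbers 1 and 2, called 131 genes, with a mitotic median of 0.59 and an S phase median of 0.19. Between sorted and tumour shNC, 8 members were called when only the 2 shNC groups were fitted, and 6 to 20 without each library in turn. There the S phase median ran from -0.41 to -0.21, and in tumours the mitotic median from 0.25 to 0.59. Small values changed sign. Between kinds of sample Pcna was 0.0053 with a minimum mean of 5 CPM and -0.12 to 0.015 without single libraries, and Mki67 was -0.28 to 0.12. With voom in tumours Cdc20 was -0.029 and Cdkn1b 0.041. Without single libraries Mki67 in tumours ran from -0.049 to 0.36, Cdkn1a from -0.44 to 0.10, Cdkn1b from -0.61 to 0.30, and Cdkn1a in sorted cells from -0.15 to 0.70. The cause of these changes was not tested. With 2 libraries in sorted shFgf21, leaving out 1 leaves a lone library assumed to vary like the others.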
